A study of Mus musculus with 4 samples.

Results

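Klrb1c-positive TCR-bearing T cells are splenic T cells that carry a rearranged T cell receptor (TCR) and transcripts of Klrb1c, the gene of the NK1.1 antigen, an activating receptor best known from natural killer (NK) cells. A barcode was counted as such a cell when it had a TRB contig, at least 1 UMI (unique molecular identifier, 1 captured transcript) of Cd3e, Cd3d or Cd3g, at least 1 UMI of Klrb1c, at most 2 UMIs of Cd79a and Cd79b together and no UMI of Csf1r. The rule found 20 cells in the pBIC10 mouse and 148 in the pBIC mouse, of 14991 and 18129 barcodes. After filters on cell quality and doublets 20 and 147 were left, and they were set against 3077 and 7010 TCR-bearing T cells that met the same rule with no Klrb1c UMI. The cells were chosen by measured values of Klrb1c, the Cd3 genes, Cd79a, Cd79b and Csf1r and by the TRB contig, and these genes were not tested.

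The study made single-cell libraries of 5' transcript ends and of TCR chains from the spleens of 2 female mice with B cell lymphoma, 1 of genotype pBIC10 and 1 of genotype pBIC. By title it concerns IL-10 made by the tumour B cells. The labels do not spell out the alleles of either genotype or give an age. Both suspensions were passed through a 70 µm strainer, freed of red cells with ACK buffer and sorted so that 20% were lymphoma cells, marked by GFP, and 80% came from the GFP-negative remainder of the spleen, and the share of T cells among all barcodes was therefore set partly by the sort. With 1 mouse per genotype no test between genotypes was possible, and a difference between the mice cannot be told apart from a difference between 2 animals or their tumours. The libraries held 147884282 UMIs in pBIC10 (median 5458 per barcode) and 166941618 in pBIC (median 6235), and 712 barcode sequences occurred in both.

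T cells with NK receptors form several known populations. Invariant NKT cells carry a TCR made from the TRAV11 and TRAJ18 segments, see glycolipids on CD1d and depend on the transcription factor PLZF, the product of Zbtb16. Memory-phenotype CD8 T cells, which arise under homeostatic cytokines without foreign antigen, carry Ly49 and other NK receptors together with CD122 and Ly6C. A subset of Ly49-positive CD8 T cells has been described as regulatory in mice, and CD8 T cells that have met antigen can also take up NK receptors. The question behind the values below is which of these features the Klrb1c-positive cells of the lymphoma-bearing spleens had.

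Klrb1c-positive cells made up 0.646% of TCR-bearing T cells in pBIC10 (20 of 3097, exact 95% interval 0.395 to 0.996%) and 2.05% in pBIC (147 of 7157, 1.74 to 2.41%). The intervals did not overlap. They are exact Clopper-Pearson intervals for counting error only and say nothing of the spread between mice. In pBIC10, 17 of the 20 cells had 1 Klrb1c UMI, 1 had 2 and 2 had 3 or more. In pBIC, 59 of the 147 cells had 1 UMI, 29 had 2 and 59 had 3 or more, with 12 UMIs as the highest value. With at least 2 Klrb1c UMIs the shares were 0.0969% in pBIC10 and 1.23% in pBIC. Thinned to 2000 UMIs per cell, which left out 1 Klrb1c-positive and 70 Klrb1c-negative cells of pBIC10 and 1 and 122 of pBIC, they were 0.231% (7 of 3026) and 1.08% (76 of 7034).

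Free RNA can put stray UMIs into droplets, so the same count was made in barcodes of other kinds that had neither Cd3 UMIs nor a TRB contig. Klrb1c was found in 0.159% of 630 B-lineage barcodes of pBIC10 (median 25458.5 UMIs) and in 0.0725% of 1379 B-lineage barcodes of pBIC (median 14551). It was found in 0 of 583 neutrophil barcodes of pBIC10, which allows a share of up to 0.631% at their median of 3033 UMIs. Barcodes with at least 3 Csf1r UMIs, which belong to the monocyte and macrophage lineage, had it in 1.78% of 1405 in pBIC10 (median 13168 UMIs) and 1.19% of 420 in pBIC (median 9952). The intervals of the B-lineage shares were 0.00402 to 0.881% in pBIC10, which overlaps that of the T cells, and 0.00184 to 0.403% in pBIC, which does not. Those of the Csf1r shares were 1.15 to 2.62% in pBIC10, above the T cell share, and 0.388 to 2.76% in pBIC, which holds the T cell share. By the share of barcodes with at least 1 Klrb1c UMI, T cells cannot be told apart from the Csf1r background in either mouse. The depths were unlike, with median UMIs of 7239 in Klrb1c-negative T cells of pBIC10 and 6290 in those of pBIC. No share of Csf1r barcodes at equal depth was taken. The T cells held 26 Klrb1c UMIs in pBIC10 and 421 in pBIC. The UMIs per cell differed in pBIC, where the 5 Csf1r barcodes with Klrb1c held 5 UMIs. There 88 T cells, 1.23%, had 2 or more. In pBIC10 the 25 Csf1r barcodes with Klrb1c held 27 UMIs, and 0.0969% of T cells had 2 or more. NK barcodes, taken as those with an Ncr1 UMI, had Klrb1c in 42.9% of 14 in pBIC10 and 80.6% of 36 in pBIC.

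Just inside the threshold, the 59 pBIC cells with 1 Klrb1c UMI had 584 CPM of Ly6c2 (the UMIs of a gene scaled to a common total of UMIs per class), 72.0 CPM of Klra7 and 276 CPM of Klrk1. The 59 with 3 or more UMIs had 660 CPM of Ly6c2, 276 CPM of Klra7 and 399 CPM of Klrk1. Just outside it, the 7010 cells with 0 UMIs had 130 CPM of Ly6c2, 3.71 CPM of Klra7 and 59.6 CPM of Klrk1. The 17 pBIC10 cells with 1 UMI had 1039 CPM of Ly6c2, 15.1 CPM of Klra7 and 256 CPM of Klrk1, against 156, 1.37 and 38.8 CPM in the 3077 pBIC10 cells without a UMI. The other 3 pBIC10 cells did not share the Ly6c2 level: it was at 0 CPM in the cell with 2 UMIs and at 131 CPM in the 2 cells with 3 or more, and none of the 3 had a Klra7 UMI. The rule's other limits removed few barcodes: of 23 pBIC10 and 168 pBIC barcodes with a TRB contig and a Klrb1c UMI, 1 and 15 were over the Cd79 limit, 2 and 5 had a Csf1r UMI, and none lacked Cd3. Median Cd3 UMIs were 17 in Klrb1c-positive cells and 28 in Klrb1c-negative cells of pBIC10, and 22 and 29 in those of pBIC.

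Of the genes named as marks of these cells, Ly6c2, an Ly6C gene of memory CD8 T cells and monocytes, was higher in Klrb1c-positive cells of both mice when all were counted. It stood at 886 CPM in Klrb1c-positive and 156 CPM in Klrb1c-negative cells of pBIC10, and at 648 CPM in Klrb1c-positive and 130 CPM in Klrb1c-negative cells of pBIC. The log2 ratio was 2.38 (edgeR adjusted p = 5.27e-20), and with 2 or more Klrb1c UMIs it was 1.28 and the call was lost (adjusted p = 0.52). Klra7, which encodes the inhibitory receptor Ly49G, was at 182 CPM in Klrb1c-positive and 3.71 CPM in Klrb1c-negative cells of pBIC, where 46 of 147 and 1.06% of the cells had a UMI. In pBIC10 it rested on 2 UMIs, 12.8 CPM, against 1.37 CPM. Tmem176b, a membrane protein gene of myeloid and type 17 cells, was at 81.8 CPM in Klrb1c-positive and 5.08 CPM in Klrb1c-negative cells of pBIC. In pBIC10 it was at 12.8 CPM in Klrb1c-positive and 13.9 CPM in Klrb1c-negative cells, so this mark held in 1 of the 2 mice only, and its edgeR call (log2 ratio 3.09) was lost with DESeq2 (adjusted p = 0.086) and without the mouse as a block (adjusted p = 0.19). Levels of different genes are not compared, since UMI counts of a 5' library carry no length scale.

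At full depth most Klrb1c-positive cells had Cd8 transcripts alone. In pBIC a larger share than among Klrb1c-negative cells had neither Cd4 nor Cd8 transcripts. In pBIC, Cd8a or Cd8b1 alone was found in 99 of 147 Klrb1c-positive cells (67.3%, interval 59.1 to 74.8%) and in 79.0% of Klrb1c-negative cells. Cd4 alone, the co-receptor of helper T cells, was found in 10 Klrb1c-positive cells (6.80%) and in 12.6% of Klrb1c-negative cells. Neither was found in 38 Klrb1c-positive cells (25.9%, interval 19.0 to 33.7%) and in 4.88% of Klrb1c-negative cells (interval 4.39 to 5.41%). In pBIC10 the 20 cells fell into 14 with Cd8 alone, 3 with Cd4 alone and 3 with neither, against 84.9%, 8.25% and 4.35% of Klrb1c-negative cells. The intervals of neither overlapped in pBIC10, at 3.21 to 37.9% in Klrb1c-positive and 3.66 to 5.14% in Klrb1c-negative cells. No Klrb1c-positive cell had both co-receptors. At 2000 UMIs per cell, neither was found in 31.6% of Klrb1c-positive and 17.9% of Klrb1c-negative cells of pBIC10, and in 51.4% of Klrb1c-positive and 18.4% of Klrb1c-negative cells of pBIC. The pBIC10 intervals again overlapped, at 12.6 to 56.6% and 16.5 to 19.3%. Cd8 alone then stood at 63.2% of Klrb1c-positive cells in pBIC10 and 45.9% in pBIC.

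Klrb1c-positive cells were mostly alone in their clonotype, the set of cells that share 1 TCR and so descend from 1 T cell. In pBIC10, 16 of 20 (80%, interval 56.3 to 94.3%) had a clonotype of 1 cell, against 33.2% of Klrb1c-negative cells (interval 31.5 to 34.9%). In pBIC, 91 of 147 (61.9%, interval 53.5 to 69.8%) had one, against 13.2% of Klrb1c-negative cells (interval 12.5 to 14.1%). Clonotypes of 10 or more cells held 0 of 20 Klrb1c-positive cells of pBIC10, with an upper bound of 16.8%, against 27.6% of Klrb1c-negative cells. They held 33 of 147 Klrb1c-positive cells of pBIC (22.4%, interval 16.0 to 30.1%), against 61.7% of Klrb1c-negative cells (interval 60.5 to 62.8%). The median clonotype size was 1 cell for Klrb1c-positive and 4 for Klrb1c-negative cells in pBIC10, and 1 and 16 cells in pBIC. Cells of 1 clonotype are not independent, so these intervals are narrower than intervals over clones would be. At least 2 TRB contigs were found in 15% of Klrb1c-positive and 4.09% of Klrb1c-negative cells of pBIC10. In pBIC these shares were 5.44% and 4.61%. Grouped by TRB alone, clonotypes of 10 or more cells held 0% of Klrb1c-positive cells of pBIC10 and 22.4% of those of pBIC. Whether extra TRB or missing TRA chains raised the share of clonotypes of 1 cell was not tested.

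**Figure D1:**
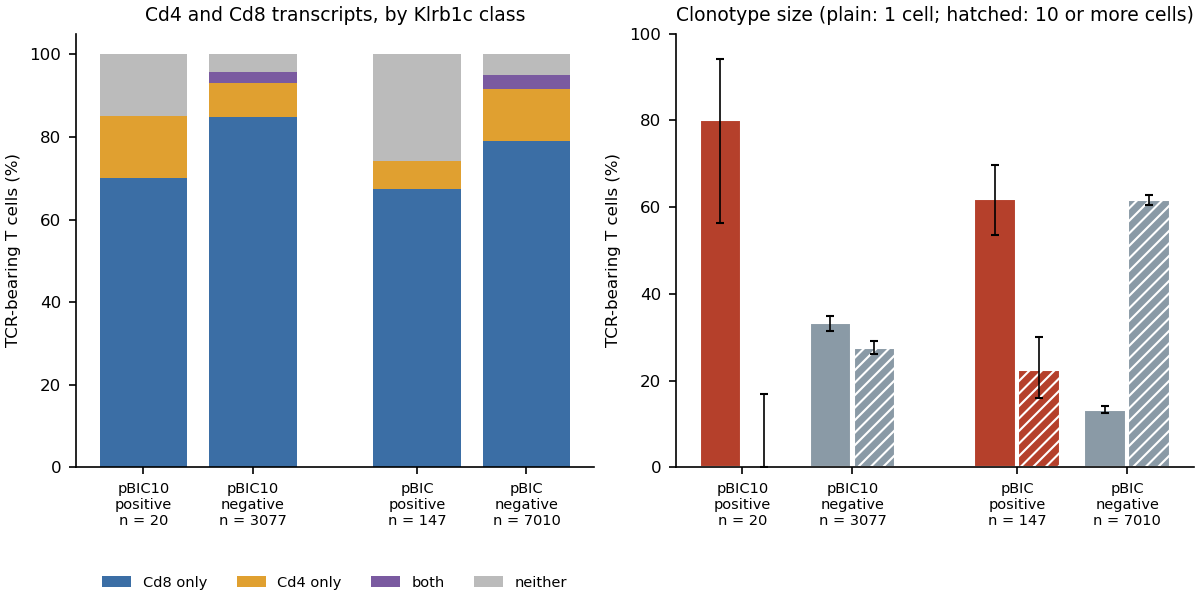
Left, stacked bars of the share of TCR-bearing T cells (%) with UMIs of Cd8a or Cd8b1 only, Cd4 only, both or neither, for Klrb1c-positive and Klrb1c-negative cells of pBIC10 and pBIC. Right, the share of the same cells (%) in clonotypes of 1 cell (plain bars) and of 10 or more cells (hatched bars), with exact 95% counting intervals; the plain bars of the Klrb1c-positive cells reach 80% in pBIC10 and 61.9% in pBIC, against 33.2% and 13.2% for the Klrb1c-negative cells.

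The Klrb1c-positive cells of pBIC10 came from 20 clonotypes and those of pBIC from 136, and 2 and 44 of these also held Klrb1c-negative cells. In pBIC, 23 clonotypes of 10 or more cells had a Klrb1c-positive cell, and the share of Klrb1c-positive cells within them ran from 0.478% to 44.4% with a median of 5.56%. The highest share was in clonotype148, where 4 of 9 T cells were Klrb1c-positive and all 9 had Cd8 alone. Its receptor joins TRBV13-1 to TRBJ2-7 and TRAV6-7-DV9 to TRAJ34. In clonotype156, which joins TRBV1 to TRBJ1-5 and TRAV5-4 to TRAJ52, 3 of 10 were Klrb1c-positive. The larger clonotype4 had 3 of 104, clonotype19 had 2 of 50 and clonotype20 had 2 of 45. In pBIC10 the clonotypes had at most 1 Klrb1c-positive cell each, among them clonotype91 with 1 of 5 T cells and clonotype251 with 1 of 3. The CDR3 nucleotides of the TRB chains of the pBIC clonotypes with the highest shares are given to show that their receptors differ.
clonotype148: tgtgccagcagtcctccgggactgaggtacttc
clonotype156: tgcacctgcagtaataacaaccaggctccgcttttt

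The invariant NKT receptor was found in a minority of the Klrb1c-positive cells, and in pBIC only. A contig that joins TRAV11 or TRAV11D to TRAJ18 was carried by 14 of 147 Klrb1c-positive cells of pBIC (9.52%, interval 5.31 to 15.5%), against 6 of 7010 Klrb1c-negative cells (0.0856%, interval 0.0314 to 0.186%). In pBIC10 it was carried by 0 of 20 Klrb1c-positive cells (upper bound 16.8%) and 0 of 3077 Klrb1c-negative cells (upper bound 0.120%). Among all barcodes with a TRB contig it was found in 1 of 3656 in pBIC10 and 24 of 8133 in pBIC. The absence from the Klrb1c-positive cells of pBIC10 is within what 20 cells can show. No TRA contig at all was found in 18.4% of Klrb1c-positive and 10.7% of Klrb1c-negative cells of pBIC. In pBIC10 these shares were 10% and 9.07%. In such cells the receptor could not be seen, and they are kept in the totals above. The 14 contigs had a median of 3 UMIs. The authors' clonotype table, which gives evidence of an invariant NKT receptor per clonotype, named a TRA gene for the same number of Klrb1c-positive cells, 14, and for 7 Klrb1c-negative cells. It named a TRB gene alone for 12.2% of Klrb1c-positive and 9.54% of Klrb1c-negative cells of pBIC, and for 5% and 10.7% of those of pBIC10, evidence that rests on the V gene. Evidence of a MAIT receptor, the semi-invariant receptor of mucosal T cells, came from TRB genes alone, in 35% of Klrb1c-positive and 20.1% of Klrb1c-negative cells of pBIC10 and in 24.5% and 25.4% of those of pBIC, and no cell had a TRAV1 to TRAJ33 contig.

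The TRA CDR3 of these cells was nearly invariant at the nucleotide level, and the sequences are shown because the variants differ at 1 position, 12 from the 5' end, where the segments join. Capitals mark that base. They encode the same protein sequence, and the contigs were assembled from mouse spleen cells.
Variant C: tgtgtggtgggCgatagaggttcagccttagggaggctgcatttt
Variant G: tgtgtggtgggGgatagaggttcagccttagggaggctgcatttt
Variant A: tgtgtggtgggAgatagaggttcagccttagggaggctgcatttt
Variant T: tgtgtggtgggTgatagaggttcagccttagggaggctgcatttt
Variant C was carried by 7 Klrb1c-positive and 1 Klrb1c-negative cell of pBIC, variant G by 6 and 1, variant A by 1 and 1, and variant T by 0 and 1. The other 2 Klrb1c-negative cells carried a longer CDR3 of 51 bases and had Cd8 transcripts, as members of 1 clonotype that uses TRBV5. In pBIC10 the only barcode with variant C lay outside both classes, with 5 UMIs of Csf1r. In pBIC, 3 further barcodes with the 45-base form were outside the classes through the Cd79 limit alone, with 3 or 4 UMIs, and 2 of them had 2 Klrb1c UMIs.

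All 14 cells stood alone in their clonotype and had 14 different TRB CDR3 sequences. Of these, 9 used the V gene annotated as TRBV12-2+TRBV13-2, 2 used TRBV13-1, 2 used TRBV1 and 1 used TRBV29; mouse invariant NKT cells are known for TRBV13, TRBV29 and TRBV1. Neither Cd4 nor Cd8 was found in 10 of them, which were 26.3% of the 38 Klrb1c-positive cells with neither. Klrk1, which encodes the activating receptor NKG2D, was found in all 14, Tmem176b in 10, Ly6c2 in 9, Zbtb16 in 5 and Klra7 in 3. Ncr1, which encodes the NK receptor NKp46, was found in none.

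The 4 sums of UMIs, 1 for each class in each mouse, held 156829 UMIs for the Klrb1c-positive and 32036746 for the Klrb1c-negative cells of pBIC10, and 1356372 and 59498077 for those of pBIC. They were compared with edgeR's quasi-likelihood test with the mouse as a block, on 12201 genes. The adjusted p (Benjamini-Hochberg) was under 0.05 for 187 genes that were higher in Klrb1c-positive cells, 1.53% of the genes tested, and for 179 that were lower, 1.47%. The fit has 1 residual degree of freedom, takes its spread from all genes together and mixes 2 genotypes, so its p-values are small for genes with many UMIs, and the values of both mice are given beside it. Of the 187 higher genes, 167 had UMIs in all 4 sums, 157 of them higher in both mice. Of the 179 lower genes, 141 had UMIs in all 4 sums, and 140 were lower in both. Without the mouse as a block the test called 33 higher and 7 lower genes, and DESeq2 called 75 and 31.

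Many NK receptor genes were called higher in Klrb1c-positive cells. Of 28 genes of Ly49 and other NK receptors 19 could be tested, 17 were called higher and none lower, and their median log2 ratio was 2.70, against -0.05 over all genes tested. This count is tilted by the filter on low counts: Klra1, Klrb1a, Klrb1b, Klri2 and Ncr1 were over it in Klrb1c-positive cells alone, and genes with few UMIs in both classes, such as Klra2, were not tested. Of the 14 members over the filter in the Klrb1c-negative sums 12 were called higher and none lower, with a median of 2.22. Over all genes, 27 of the 187 higher calls passed the filter through the Klrb1c-positive sums alone. Of the 179 lower calls, 38 passed it through the Klrb1c-negative sums alone. Klrc2, which encodes the activating receptor NKG2C, was at 70.1 CPM in Klrb1c-positive and 5.56 CPM in Klrb1c-negative cells of pBIC10, and at 75.2 CPM in Klrb1c-positive and 5.26 CPM in Klrb1c-negative cells of pBIC (edgeR log2 ratio 3.78, SE 0.36, adjusted p = 1.70e-22). It was found in 40% and 38.1% of Klrb1c-positive cells, against 5.26% and 3.98% of Klrb1c-negative cells. Klrk1 was at 261 CPM in Klrb1c-positive and 38.8 CPM in Klrb1c-negative cells of pBIC10, and at 337 CPM in Klrb1c-positive and 59.6 CPM in Klrb1c-negative cells of pBIC (log2 ratio 2.59, SE 0.24, edgeR adjusted p = 6.12e-24). At 2000 UMIs per cell it was found in 47.4% of Klrb1c-positive and 6.75% of Klrb1c-negative cells of pBIC10, and in 42.5% and 9.03% of those of pBIC. Klre1, the gene of an inhibitory lectin-like receptor of NK cells, was at 147 CPM in Klrb1c-positive and 14.2 CPM in Klrb1c-negative cells of pBIC10 and at 159 CPM in Klrb1c-positive and 31.5 CPM in Klrb1c-negative cells of pBIC (log2 ratio 2.70, SE 0.26).

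The Ly49 genes were called from pBIC. Klra7 (log2 ratio 5.28, SE 0.37, edgeR adjusted p = 5.04e-42) had 2 UMIs in the Klrb1c-positive cells of pBIC10 and 247 in those of pBIC. Klra1, the gene of Ly49A, had 1 and 96 UMIs, and Klra6, the gene of Ly49F, had 0 and 77. Ncr1 had 1 and 115 UMIs, from 1 cell in pBIC10 and 19 cells in pBIC. Members of the Ly49 family are close copies of each other, so the counts may be split among them. The log2 ratio of Klra7 within pBIC10 was 3.21, with a counting interval of 0.12 to 5.15, and within pBIC 5.62 (5.35 to 5.88).

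Signal adaptors that pair with activating NK receptors were among the strongest calls. Tyrobp, the gene of DAP12, was at 376 CPM in Klrb1c-positive and 38.1 CPM in Klrb1c-negative cells of pBIC10, and at 350 CPM in Klrb1c-positive and 25.2 CPM in Klrb1c-negative cells of pBIC (log2 ratio 3.56, SE 0.24, edgeR adjusted p = 3.40e-44). Fcer1g, the gene of the Fc receptor gamma chain, was at 236 CPM in Klrb1c-positive and 37.9 CPM in Klrb1c-negative cells of pBIC10 and at 355 CPM in Klrb1c-positive and 14.1 CPM in Klrb1c-negative cells of pBIC. Only 7 of the 20 pBIC10 cells had a Tyrobp UMI, and 1 cell held 47.5% of the UMIs. Of the 11 genes tested in the list of adaptors and signalling, 3 were called higher (Tyrobp, Fcer1g and Ptpn6, the gene of the phosphatase SHP-1) and none lower, with a median of 1.05. Without the cells that had an Ncr1 UMI the log2 ratios were 2.28 for Tyrobp and 2.97 for Fcer1g, and the test called both. Rbpms, an RNA-binding protein gene, was at 25.5 CPM in Klrb1c-positive and 1.62 CPM in Klrb1c-negative cells of pBIC10, and at 23.6 CPM in Klrb1c-positive and 0.487 CPM in Klrb1c-negative cells of pBIC. Atp1b1, a sodium pump subunit, Rnf130, a ubiquitin ligase, and Gpc1, a glypican, were also called higher, with log2 ratios of 4.16, 3.09 and 3.60. The pBIC10 side of these genes rested on few UMIs in Klrb1c-positive cells: 4 for Rbpms, 4 for Atp1b1 and 5 for Gpc1. Rnf130 had 14 there, 64.3% of them in 1 cell, and was at 35.0 CPM without that cell.

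**Figure D2:**
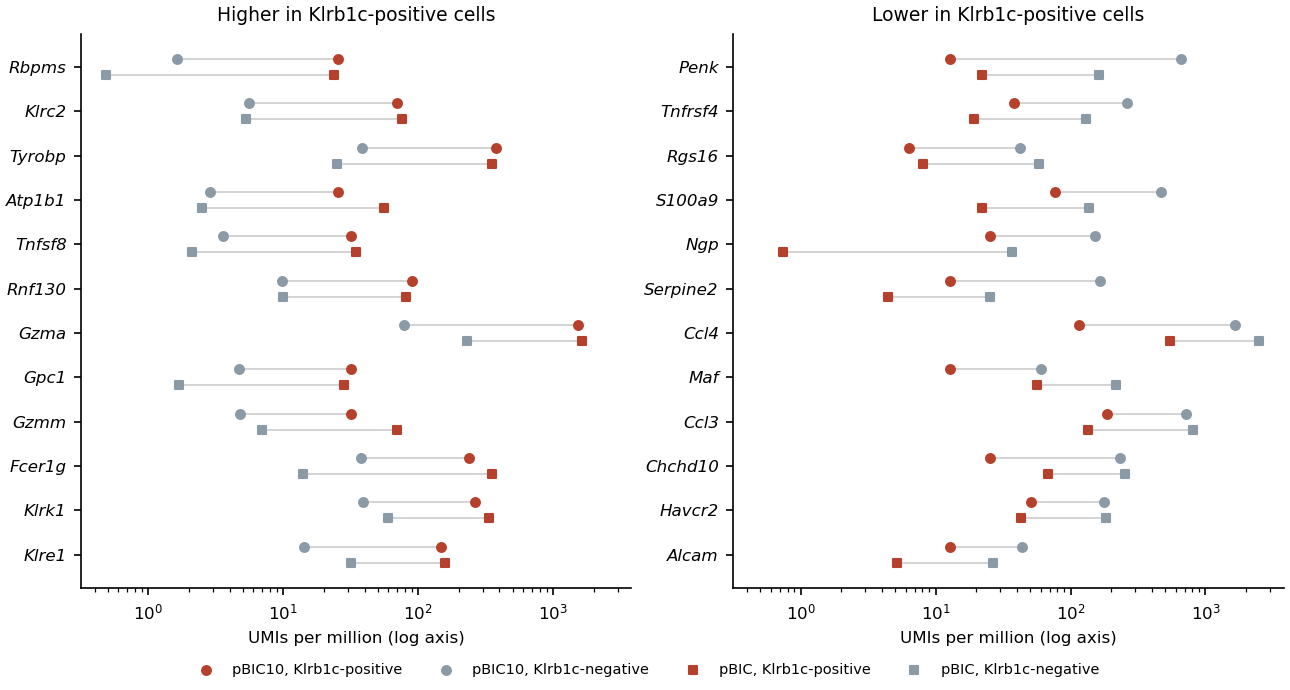
CPM (scaled UMIs, log axis) of the 12 genes per direction with the largest change common to both mice, in Klrb1c-positive (red) and Klrb1c-negative (grey) cells of pBIC10 (circles) and pBIC (squares). In each panel the red and grey points of a mouse stand apart, as for Klrk1 with 261 against 38.8 CPM in pBIC10 and 337 against 59.6 CPM in pBIC.

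Genes of naive and memory T cells were mostly higher in Klrb1c-positive cells. Of 15 genes tested in the list of memory-like CD8 T cells 10 were called higher and 1 lower, with a median of 1.16. Eomes, a T-box factor of memory CD8 and NK cells, was not called and lay lower in both mice. It was at 172 CPM in Klrb1c-positive and 192 CPM in Klrb1c-negative cells of pBIC10. In pBIC the levels were 145 and 279 CPM. Il2rb, the gene of CD122, was not called either (log2 ratio 0.52, edgeR adjusted p = 0.42). Il7r, the receptor of the survival cytokine IL-7, was at 593 CPM in Klrb1c-positive and 124 CPM in Klrb1c-negative cells of pBIC10, and at 441 CPM in Klrb1c-positive and 118 CPM in Klrb1c-negative cells of pBIC (log2 ratio 2.04, SE 0.23, edgeR adjusted p = 4.05e-16). Every Klrb1c-positive cell of pBIC10 had an Il7r UMI. Tcf7, the gene of the transcription factor TCF1 of naive and memory T cells, was at 108 CPM in Klrb1c-positive and 26.2 CPM in Klrb1c-negative cells of pBIC10 and at 145 CPM in Klrb1c-positive and 34.8 CPM in Klrb1c-negative cells of pBIC. Cd44, an adhesion receptor of antigen-experienced and memory cells, was at 128 CPM in Klrb1c-positive and 45.5 CPM in Klrb1c-negative cells of pBIC10 and at 92.9 CPM in Klrb1c-positive and 43.1 CPM in Klrb1c-negative cells of pBIC. The call of Cd44 was lost by DESeq2 (adjusted p = 0.086), and with 2 or more Klrb1c UMIs those of Cd44 (edgeR adjusted p = 0.75) and Il7r (log2 ratio 1.42, adjusted p = 0.27) were lost. Ly6a, the gene of Sca-1, was the member called lower, at 733 CPM in Klrb1c-positive and 1087 CPM in Klrb1c-negative cells of pBIC10 and at 673 CPM in Klrb1c-positive and 1504 CPM in Klrb1c-negative cells of pBIC, with an edgeR adjusted p = 0.042 that passed the threshold in fewer than all settings (0.11 among Cd8 cells alone, 0.058 without the Ncr1 cells, 0.066 by DESeq2). Tnfsf8, the gene of the CD30 ligand, was at 31.9 CPM in Klrb1c-positive and 3.59 CPM in Klrb1c-negative cells of pBIC10 and at 34.7 CPM in Klrb1c-positive and 2.12 CPM in Klrb1c-negative cells of pBIC. It rested on 5 UMIs in the Klrb1c-positive cells of pBIC10.

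Receptors for the cytokines that activate innate-like T cells were higher too. Il18r1 was at 108 CPM in Klrb1c-positive and 14.5 CPM in Klrb1c-negative cells of pBIC10, and at 70.8 CPM in Klrb1c-positive and 20.4 CPM in Klrb1c-negative cells of pBIC (log2 ratio 2.19, SE 0.31, edgeR adjusted p = 6.54e-10). Il18rap was at 153 CPM in Klrb1c-positive and 27.9 CPM in Klrb1c-negative cells of pBIC10 and at 91.4 CPM in Klrb1c-positive and 36.1 CPM in Klrb1c-negative cells of pBIC, and Il12rb2 at 38.3 CPM in Klrb1c-positive and 8.05 CPM in Klrb1c-negative cells of pBIC10 and at 31.7 CPM in Klrb1c-positive and 2.64 CPM in Klrb1c-negative cells of pBIC. Il12rb2 rested on 6 UMIs in the Klrb1c-positive cells of pBIC10, 50% of them in 1 cell. Of the 13 genes tested of the innate-like and invariant NKT programme 5 were called higher and 1, Icos, lower, with a median of 0.11. Among the 5, Il4 passed the filter on low counts through the Klrb1c-positive sums alone. Zbtb16 had too few UMIs to be tested: 0 in the Klrb1c-positive cells of pBIC10, with a limit of 19.1 CPM that 3 counts allow, and 18 in those of pBIC. Of the 10 genes tested for Ly49-positive regulatory CD8 cells 5 were called higher, 4 of them Ly49 genes, and 2 lower, Il10 and Lag3, with a median of 0.80. Klra1 passed the filter through the Klrb1c-positive sums alone, and Il10 and Lag3 through the Klrb1c-negative sums alone.

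Genes linked to residence in tissue were called higher in 5 of 9 and lower in none, with a median of 1.52, but not all in both mice. Xcl1 was called from pBIC, at 271 CPM in Klrb1c-positive and 38.0 CPM in Klrb1c-negative cells, while in pBIC10 it was at 12.8 CPM in Klrb1c-positive and 75.6 CPM in Klrb1c-negative cells. Of its UMIs in the Klrb1c-positive cells of pBIC, 35.9% were in 1 cell. Ahr, the aryl hydrocarbon receptor gene, had 1 UMI in Klrb1c-positive cells of pBIC10, and its call was lost without the Ncr1 cells (edgeR adjusted p = 0.14) and by DESeq2. Itga1, the collagen-binding integrin CD49a, was at 30.97 CPM in Klrb1c-positive and 1.58 CPM in Klrb1c-negative cells of pBIC and rested on 2 UMIs in pBIC10. Cd69, which holds lymphocytes in tissue and marks recent activation, was at 179 CPM in Klrb1c-positive and 40.6 CPM in Klrb1c-negative cells of pBIC10 and at 166 CPM in Klrb1c-positive and 73.6 CPM in Klrb1c-negative cells of pBIC, with 60.7% of the pBIC10 UMIs in 1 cell. Of the 10 effector genes tested 3 were called higher, of which S1pr5 passed the filter through the Klrb1c-positive sums alone, and 1 lower. Among them Itgb1, the integrin beta 1 chain, was at 166 CPM in Klrb1c-positive and 40.2 CPM in Klrb1c-negative cells of pBIC10 and at 167 CPM in Klrb1c-positive and 53.7 CPM in Klrb1c-negative cells of pBIC, and Prdm1, the gene of the effector regulator Blimp-1, was lower at 63.8 CPM in Klrb1c-positive and 92.1 CPM in Klrb1c-negative cells of pBIC10 and at 17.7 CPM in Klrb1c-positive and 65.3 CPM in Klrb1c-negative cells of pBIC. The call of Prdm1 was lost by DESeq2 (adjusted p = 0.36) and with 2 or more Klrb1c UMIs (edgeR adjusted p = 0.13).

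Cytotoxicity genes moved in opposite directions. Of 19 tested 4 were called higher and 5 lower, and the median was -0.62. Gzma, the gene of granzyme A, was at 1524 CPM in Klrb1c-positive and 79.0 CPM in Klrb1c-negative cells of pBIC10, and at 1626 CPM in Klrb1c-positive and 230 CPM in Klrb1c-negative cells of pBIC (log2 ratio 3.49, SE 0.29, edgeR adjusted p = 1.29e-30). Its UMIs lay in 9 of 20 and 25 of 147 cells, and 1 pBIC10 cell held 63.6% of them. Gzmm, the gene of granzyme M, was at 31.9 CPM in Klrb1c-positive and 4.78 CPM in Klrb1c-negative cells of pBIC10 and at 69.3 CPM in Klrb1c-positive and 6.91 CPM in Klrb1c-negative cells of pBIC. It rested on 5 UMIs in the Klrb1c-positive cells of pBIC10. Gzmk, the granzyme of pre-exhausted and memory CD8 T cells, was lower at 357 CPM in Klrb1c-positive and 816 CPM in Klrb1c-negative cells of pBIC10 and at 451 CPM in Klrb1c-positive and 1451 CPM in Klrb1c-negative cells of pBIC.

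The chemokines of activated CD8 T cells and interferon gamma were lower against all Klrb1c-negative cells, though Ccl4 and Ccl3 were not called against those of shared clonotypes. Ccl4 was at 115 CPM in Klrb1c-positive and 1658 CPM in Klrb1c-negative cells of pBIC10, and at 542 CPM in Klrb1c-positive and 2482 CPM in Klrb1c-negative cells of pBIC (log2 ratio -2.79, SE 0.32, edgeR adjusted p = 6.93e-15). Ccl3 was at 185 CPM in Klrb1c-positive and 714 CPM in Klrb1c-negative cells of pBIC10, where 1 cell held 93.1% of the UMIs, and at 136 CPM in Klrb1c-positive and 804 CPM in Klrb1c-negative cells of pBIC. Ifng was at 12.8 CPM in Klrb1c-positive and 164 CPM in Klrb1c-negative cells of pBIC10 and at 149 CPM in Klrb1c-positive and 446 CPM in Klrb1c-negative cells of pBIC. Penk, the gene of proenkephalin, was at 12.8 CPM in Klrb1c-positive and 654 CPM in Klrb1c-negative cells of pBIC10 and at 22.1 CPM in Klrb1c-positive and 162 CPM in Klrb1c-negative cells of pBIC (log2 ratio -3.49, SE 0.30). Tnfrsf4, the gene of the costimulatory receptor OX40, was at 38.3 CPM in Klrb1c-positive and 264 CPM in Klrb1c-negative cells of pBIC10 and at 19.2 CPM in Klrb1c-positive and 129 CPM in Klrb1c-negative cells of pBIC. Rgs16, a regulator of G protein signalling, Serpine2, a protease inhibitor, Maf, a transcription factor that drives Il10, Chchd10, a mitochondrial protein, and Alcam, the ligand of CD6, were also called lower, with log2 ratios from -2.94 to -1.94.

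Exhaustion and checkpoint genes were lower in Klrb1c-positive cells as a group. Of 14 tested 9 were called lower and 2 higher, with a median of -1.21. Lag3 passed the filter on low counts through the Klrb1c-negative sums alone. Havcr2, the gene of the inhibitory receptor TIM-3, was at 51.0 CPM in Klrb1c-positive and 177 CPM in Klrb1c-negative cells of pBIC10, and at 42.8 CPM in Klrb1c-positive and 183 CPM in Klrb1c-negative cells of pBIC (log2 ratio -2.00, SE 0.28, edgeR adjusted p = 2.48e-10). Lag3, another inhibitory receptor, had no UMI in the 20 pBIC10 cells against 111 CPM in the Klrb1c-negative ones, and stood at 43.5 CPM in Klrb1c-positive and 145 CPM in Klrb1c-negative cells of pBIC. Entpd1, the gene of CD39, was at 6.38 CPM in Klrb1c-positive and 58.7 CPM in Klrb1c-negative cells of pBIC10 and at 39.1 CPM in Klrb1c-positive and 97.4 CPM in Klrb1c-negative cells of pBIC, and Nr4a2, a factor induced by TCR signals, at 12.8 CPM in Klrb1c-positive and 61.2 CPM in Klrb1c-negative cells of pBIC10 and at 21.4 CPM in Klrb1c-positive and 53.0 CPM in Klrb1c-negative cells of pBIC. By DESeq2 the calls of Lag3, Entpd1 (adjusted p = 0.18) and Nr4a2 (adjusted p = 0.39) were lost, and with 2 or more Klrb1c UMIs that of Havcr2 (edgeR adjusted p = 0.064). The 2 genes called higher, Cd160 and Cd244a, are also NK receptors: Cd244a was at 38.3 CPM in Klrb1c-positive and 9.33 CPM in Klrb1c-negative cells of pBIC10 and at 38.3 CPM in Klrb1c-positive and 5.88 CPM in Klrb1c-negative cells of pBIC. Of its 6 UMIs in the Klrb1c-positive cells of pBIC10, 50% were in 1 cell. The call of Cd160 was lost by DESeq2 (adjusted p = 0.73) and without the Ncr1 cells (edgeR adjusted p = 0.10).

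**Figure D3:**
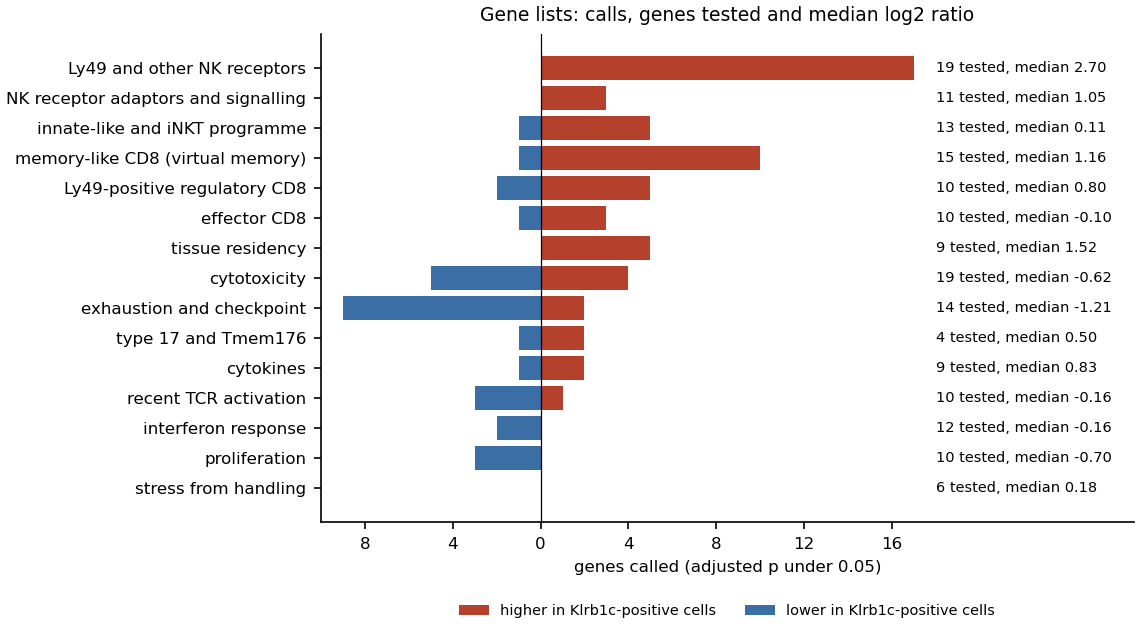
Number of genes of each list called higher (red, to the right) or lower (blue, to the left) in Klrb1c-positive than in Klrb1c-negative cells at an adjusted p under 0.05, with the number tested and the median log2 ratio of the list at the right. NK receptors have 17 calls to the right of 19 genes tested, and exhaustion and checkpoint genes 9 to the left of 14.

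The remaining lists held fewer calls. Il10, the cytokine in the study's title, had 0 UMIs in the Klrb1c-positive cells of pBIC10 and 7 in those of pBIC, 5.16 CPM against 45.1 CPM in Klrb1c-negative cells (log2 ratio -3.21, SE 0.52, edgeR adjusted p = 9.29e-08). Of the 9 cytokine genes tested Il4 and Ltb were called higher, Il10 lower and 6 not. Il4 passed the filter through the Klrb1c-positive sums alone, with 4 UMIs in 5% of the pBIC10 cells and 5 UMIs in pBIC. Il10 passed it through the Klrb1c-negative sums alone. Of 10 genes of recent TCR activation 1, Cd69, was called higher and 3 lower, among them Nr4a1. Nr4a1 had 0 UMIs in the Klrb1c-positive cells of pBIC10, and in pBIC 8.85 CPM in Klrb1c-positive against 41.4 CPM in Klrb1c-negative cells. It passed the filter through the Klrb1c-negative sums alone, and 1 pBIC cell held 66.7% of its UMIs in Klrb1c-positive cells. Its call was lost against Klrb1c-negative cells of matched depth (edgeR adjusted p = 0.066), as was that of Nr4a2 (0.088). DESeq2 called none of the 3 lower genes, Nr4a1, Nr4a2 and Irf4. Proliferation genes were lower in 3 of 10, with a median of -0.70: Top2a was at 38.3 CPM in Klrb1c-positive and 134 CPM in Klrb1c-negative cells of pBIC10 and at 146 CPM in Klrb1c-positive and 299.9 CPM in Klrb1c-negative cells of pBIC. DESeq2 called neither Top2a (adjusted p = 0.095) nor Tyms (0.13), another of the 3. Interferon response genes were lower in 2 of 12, Isg15 and Ifi27l2a, which DESeq2 did not call (adjusted p = 0.59 and 0.44). Genes of stress from handling were called in neither direction among 6. In the type 17 list, where 4 genes were tested, Tmem176a and Tmem176b were called higher and Maf lower, and Il17a, Il17f and Il23r, genes of type 17 cells, had no UMI in Klrb1c-positive cells.

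Markers of other cell types moved with some of these groups. Of 11 NK cell markers tested 7 were called higher and none lower, of which Ncr1 and S1pr5 passed the filter through the Klrb1c-positive sums alone; of the 9 others 5 were called higher. The list summed to 3163 CPM in Klrb1c-positive and 1080 CPM in Klrb1c-negative cells of pBIC10, and to 4072 CPM in Klrb1c-positive and 1471 CPM in Klrb1c-negative cells of pBIC. The list has 16 genes, several of them NK receptors listed above, and Klrb1c was left out of the sums. Gzma alone gave 1524 CPM of the Klrb1c-positive sum in pBIC10 and 1626 CPM in pBIC. Of 6 neutrophil markers 4 were called lower and none higher, with sums of 255 CPM in Klrb1c-positive and 1044 CPM in Klrb1c-negative cells of pBIC10 and of 41.3 CPM in Klrb1c-positive and 321 CPM in Klrb1c-negative cells of pBIC. S100a9 was at 76.5 CPM in Klrb1c-positive and 466 CPM in Klrb1c-negative cells of pBIC10 and at 22.1 CPM in Klrb1c-positive and 138 CPM in Klrb1c-negative cells of pBIC, and Ngp at 25.5 CPM in Klrb1c-positive and 153 CPM in Klrb1c-negative cells of pBIC10 and at 0.737 CPM in Klrb1c-positive and 36.8 CPM in Klrb1c-negative cells of pBIC. Against Klrb1c-negative cells of matched depth, 3 for each Klrb1c-positive cell, none of the 4 was called: the log2 ratio was -0.41 for S100a9 (edgeR adjusted p = 0.76), -0.40 for S100a8 (0.75), -1.65 for Ngp (0.25) and 0.42 for Retnlg (0.95). B-lineage markers had 1 call of 7 (Igkc, lower), monocyte markers 1 of 7 (Ly6c2, higher), regulatory T cell markers 1 in each direction of 6, and erythroid markers 2 lower of 6. By DESeq2 the lower calls of Igkc (adjusted p = 0.20), the regulatory T cell gene Ctla4 (0.39) and the erythroid genes Hba-a1 (0.92) and Hbb-bs (0.71) were lost. Of 8 invariant NKT cell markers tested 4 were called higher and 1 lower. Among the 4, Il4 passed the filter through the Klrb1c-positive sums alone. Of the gamma-delta T cell markers 1 of 5 tested, Tcrg-C1, was called higher, with 0 UMIs in the Klrb1c-positive cells of pBIC10 and 30 in those of pBIC; DESeq2 did not call it (adjusted p = 0.65). Dendritic cell markers had 1 gene tested and none called; Flt3, Clec9a, Cd209a and Siglech had no UMI in Klrb1c-positive cells. The part of these other cell types in the results was not tested.

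The 147 Klrb1c-positive cells of pBIC were not of 1 kind, and they are described here by what they carried, with no test, since all came from 1 mouse. The 14 cells with the TRAV11 to TRAJ18 contig had UMIs of Il7r and Klrk1 in every cell, Tmem176b in 71.4%, Zbtb16 in 35.7%, Eomes, a T-box factor of memory CD8 and NK cells, in 7.14%, and Klra6 and Lag3 in none. The 19 cells with an Ncr1 UMI had Tyrobp and Fcer1g in every cell, Klra7 in 63.2% and Lag3 in 57.9%. Their median UMI count was 11113, against 7193.5 in the other Klrb1c-positive cells, and their median Cd3 count was 33 against 21. Of these 19 cells 12 had Cd8 alone, 1 had Cd4 alone and 6 had neither, and 10 had a clonotype of 1 cell.

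The other 85 cells with Cd8 alone were the largest subset. They had Klrd1, the partner chain of the NKG2 receptors, in 83.5%, Il7r in 74.1%, Tcf7 in 68.2%, Ly6c2 in 71.8%, Eomes in 60% and Klra7 and Klra6 in 28.2% each, Tyrobp in 24.7%, and Zbtb16 in none. Among all Klrb1c-negative cells of pBIC, 77.2% had an Eomes UMI. The other 22 cells with neither co-receptor had Klrk1 in 86.4%, Il7r in 90.9%, Tmem176b in 36.4% and Zbtb16 in 18.2%, and Lag3 in none. The remaining 7 had Cd4 alone and had Il7r in every cell.

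**Figure D4:**
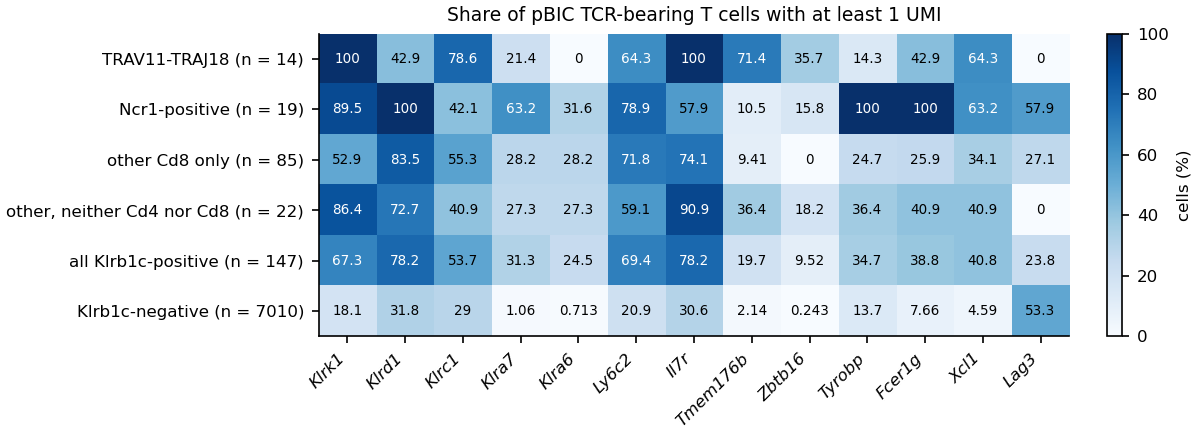
Share of cells (%, shown in each box and by its shade) with at least 1 UMI of the gene on the horizontal axis, in subsets of the Klrb1c-positive TCR-bearing T cells of pBIC and in the Klrb1c-negative ones at the bottom. Tyrobp and Fcer1g are at 100% in the Ncr1-positive cells, while Tmem176b is at 71.4% in the TRAV11 to TRAJ18 cells and 9.41% in the other Cd8 cells.

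Within pBIC the Klrb1c-positive cells of unexpanded and expanded clonotypes also differed in level. The 91 cells in clonotypes of 1 cell had 847 CPM of Ly6c2, 97.4 CPM of Klra6, 431 CPM of Xcl1 and 15.6 CPM of Lag3. The 33 cells in clonotypes of 10 or more had 308 CPM of Ly6c2, 2.70 CPM of Klra6, 54.0 CPM of Xcl1 and 89.1 CPM of Lag3. Of the Xcl1 UMIs of all 147 cells, 35.9% were in 1 cell. Klrk1 was at 360 CPM in the unexpanded and 297 CPM in the expanded cells. Klrb1c-negative cells in clonotypes of 1 cell had 284 CPM of Ly6c2, 7.99 CPM of Klra6, 53.4 CPM of Xcl1, 128 CPM of Lag3 and 91.3 CPM of Klrk1.

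The comparison between the classes was repeated in narrower sets of cells. Among cells with Cd8 alone, 14 and 99 Klrb1c-positive against 2611 and 5535 Klrb1c-negative, 129 genes were called higher and 111 lower, and all 24 of the top-ranked genes were called with the same sign. Those 24 were ranked in sums that hold these same cells, so this outcome was largely set in advance here and below. Among clonotypes of 1 cell 108 and 99 were called, again with all 24. Without cells that had an Ncr1, Klra8 or Klra4 UMI or a TRAV11 to TRAJ18 contig, 141 and 135 were called, with all 24, and Klrk1 had a log2 ratio of 2.57. When all Klrb1c-positive cells were set against only those Klrb1c-negative cells that shared a clonotype with one of them, 6 in pBIC10 and 929 in pBIC, 7396 genes could be tested, 82 were called higher and 40 lower, and 19 of the 24 were called, 23 with the same sign and 1 not tested. There Klrc2 had a log2 ratio of 3.60, Il7r of 2.22, Klrk1 of 1.47 and Havcr2 of -1.49, while Ly6c2 had 1.21 and was not called (edgeR adjusted p = 0.20). Ccl4 (-1.55, adjusted p = 0.22), Ccl3 (-1.46, 0.42), Serpine2 (-1.63, 0.42) and Alcam (-1.77, 0.25) also lost their calls there, as did Gzmk (-1.01, 0.12). Of all genes called higher and lower in the full comparison, 63.6% and 58.1% were called again among cells with Cd8 alone. The shares were 56.15% and 48.0% in clonotypes of 1 cell, and 41.2% and 19.0% against shared clonotypes. Without the NK-gene and TRAV11 to TRAJ18 cells they were 72.7% and 67.6%.

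**Figure D5:**
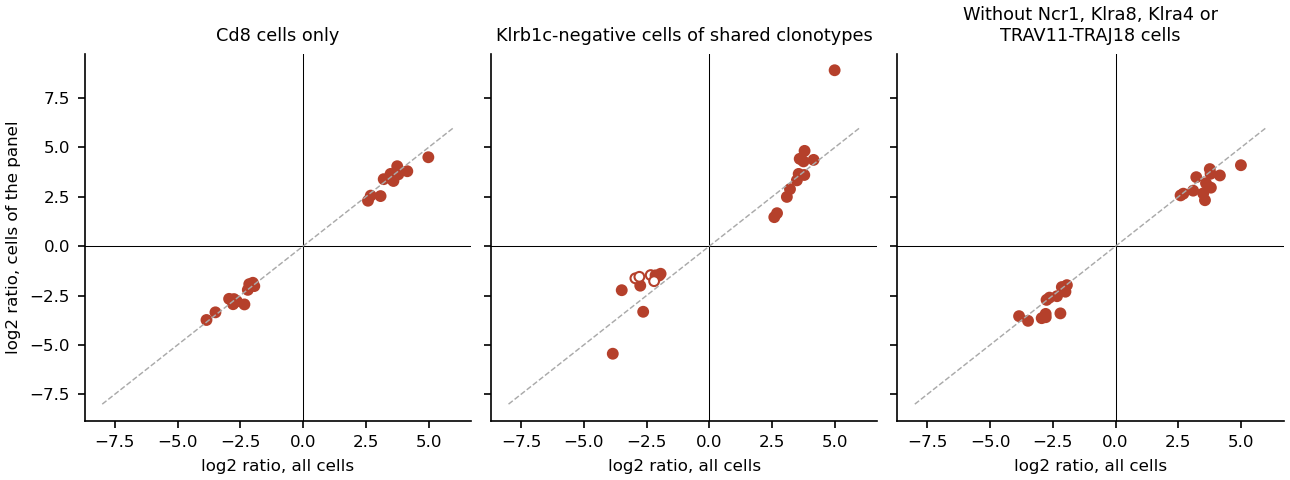
Fitted log2 ratio of Klrb1c-positive over Klrb1c-negative cells for the 24 top-ranked genes, in all cells (horizontal) and in the cells named above each panel (vertical); filled points have an adjusted p under 0.05, and the dashed line marks equal values. All points are filled in the outer panels, and 19 in the middle one, where 1 gene could not be tested. The 24 genes were ranked in sums that hold these same cells.

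Between the mice only counts can be compared. In Klrb1c-positive cells the genes with the clearest excess in pBIC10 were Ccl6, Ifitm1, the MHC class II genes H2-Ab1, H2-Eb1, H2-Aa and Cd74, Egr1 and Capg. Single cells carried much of this. Of the 82 Ccl6 UMIs in pBIC10, 81 were in 1 cell, which had 4 Cd4 UMIs, 28 of Tyrobp and 16 of Fcer1g. Of the 270 Cd74 UMIs, 138 were in another cell, which also held 41 of the 75 UMIs of H2-Ab1 and had no Cd3e UMI. Without these 2 cells the log2 ratio of pBIC10 over pBIC was 0.84 for Ccl6, in place of 6.89, and 1.95 for Cd74, in place of 2.75. Cd74 was also higher in pBIC10 among Klrb1c-negative cells, with 1035 CPM against 335 CPM in pBIC (log2 ratio 1.63).

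The genes with the clearest deficit in pBIC10 were the linker and core histone genes Hist1h1b, Hist1h2ae, Hist1h1d, Hist1h1e and Hist1h2ab, Xcl1, Cd7 and Klra7. Xcl1, the chemokine that draws cross-presenting dendritic cells, had 2 UMIs in pBIC10, 12.8 CPM, and 368 in pBIC, 271 CPM (log2 ratio -4.41, counting interval -7.46 to -2.55). Of the pBIC UMIs 35.9% were in 1 cell, and without that cell the level was 175 CPM. In Klrb1c-negative cells Xcl1 was at 75.6 CPM in pBIC10 and 38.0 CPM in pBIC, so the order of the mice was the other way round. Klra7 was at 12.8 CPM in pBIC10 and 182 CPM in pBIC (log2 ratio -3.84, interval -6.89 to -1.97). Cd7, a T and NK cell surface glycoprotein, was at 102 CPM in pBIC10 and 672 CPM in pBIC, and in Klrb1c-negative cells at 22.8 CPM in pBIC10 and 468 CPM in pBIC. Hist1h1b was at 12.8 CPM in pBIC10 and 363 CPM in pBIC, and in Klrb1c-negative cells at 182 CPM in pBIC10 and 658 CPM in pBIC. All 5 histone genes were lower in pBIC10 in both classes. Klrk1, Klrc2, Klre1, Tyrobp and Gzma differed little, with log2 ratios of pBIC10 over pBIC from -0.37 to 0.10 and counting intervals that held 0. For Gzma and Tyrobp this depended on single cells. Without the cell of each mouse with the most UMIs of the gene, Gzma was at 596 CPM in pBIC10 and 1323 CPM in pBIC. Tyrobp was then at 217 CPM in pBIC10 and 306 CPM in pBIC.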

How the data were processed

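For each mouse the authors deposited a matrix of raw UMI counts, genes by barcodes. The submitters' processing notes name Cell Ranger 3.0.1 and the build GRCm39; version 5.0.1 stands in the file headers. The deposited contig tables hold read and UMI counts per TCR chain, and the deposited clonotype tables a cell count and a fraction of cells per clonotype. Cells were joined to TCR contigs by barcode within a mouse. A barcode was kept when 200 or more genes were detected and mitochondrial genes gave less than 10% of its UMIs, and doublet calls of Scrublet (scanpy 1.11.5; expected rate 0.08), 356 in pBIC10 and 388 in pBIC, were removed; its random seed was chosen after a first seed gave no usable threshold in pBIC.

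UMIs were summed per mouse and class, and the 4 sums were fitted with edgeR 4.0.16 (R 4.3.3; glmQLFit and glmQLFTest, filterByExpr with a minimum count of 10, TMM, the mouse as a block), with Benjamini-Hochberg adjustment over all genes tested and a threshold of 0.05. The sums of 1 mouse come from the same spleen and library, which is where the pairing comes from. DESeq2 1.42.0 was an alternative. The fit was tested on simulated data. CPM values are sums scaled by the total UMIs of a class. Genes were named by rule: the 4 marks of the cells; the 12 per direction with the largest change common to both mice (at least 50 UMIs in each mouse and 20 CPM in the higher class); up to 4 members per list and direction; and the 8 per direction between mice with the clearest counting interval. Some list members outside that rule (Zbtb16, Klra1, Ltb, Nr4a1 and others) were named after their values were seen. Clonotype sizes are those of the deposited table, over all TCR barcodes. The members and lists were chosen with earlier results of these data known. Restricting to clonotypes of 1 cell and leaving out the TRAV11 to TRAJ18 cells, the NK-gene cells or 2 pBIC10 cells were alternatives chosen after seeing the data. The planned erythroid background class held no barcodes, and other classes were used.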

Additional observations from a re-analysis of the deposited data

Results flagged for a closer look

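For 5 genes the ratio of Klrb1c-positive over Klrb1c-negative cells differed between the mice, here as the log2 ratio in pBIC10 minus that in pBIC; with 1 mouse each the difference was not tested. It was 5.87 for Ccl6, 3.28 for Egr1, 1.95 for H2-Ab1 and 1.12 for Cd74, and -5.40 for Xcl1. Of the pBIC10 UMIs of Klrb1c-positive cells, 1 cell held 98.8% for Ccl6, 54.7% for H2-Ab1 and 51.1% for Cd74. The Xcl1 value rests on 2 UMIs in pBIC10, and in pBIC 1 cell held 35.9% of the UMIs.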

How the results depend on the processing

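The share of Klrb1c-positive cells depended on how Klrb1c was read: it was 0.0969% in pBIC10 and 1.23% in pBIC at 2 or more UMIs, 0.231% and 1.08% at 2000 UMIs per cell, and 0.290% in pBIC10 without any Cd79 or Lyz2 UMI. At 2 or more UMIs no pBIC10 cell (0%) had Cd4 alone, and in pBIC 34.1% had neither co-receptor and 14.8% were in clonotypes of 10 or more cells. At 2000 UMIs per cell Cd8 alone stood at 45.9%, Cd4 alone at 2.74% and neither at 51.4% in pBIC. Genes called higher numbered 82 against cells of shared clonotypes, 108 in clonotypes of 1 cell, 75 by DESeq2 and 33 with no replicate block. Genes called lower numbered 48 at 2 or more UMIs, 111 among Cd8 cells, 40 against shared clonotypes, 99 in clonotypes of 1 cell, 31 by DESeq2 and 7 with no replicate block. At 2 or more UMIs 94 of the higher and 34 of the lower calls were shared with the full comparison. Of 68 named genes called in the full comparison, DESeq2 called 43, and 41 were called at 2 or more UMIs. Not every lost call is marked above. Among the named genes, 780 values over the alternatives kept their direction and their side of the threshold, 154 lost the call, and Retnlg turned to 0.42 against negative cells of matched depth. In 1 mouse alone Tmem176b ran from -0.12 in pBIC10 to 4.01 in pBIC. The cause was not tested. The 20 pBIC10 cells, most with 1 Klrb1c UMI, limit every value of that mouse.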
